A study of Homo sapiens with 11 samples.

Results

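The 4 HOX clusters, HOXA on chromosome 7, HOXB on chromosome 17, HOXC on chromosome 12 and HOXD on chromosome 2, were examined for chromatin binding of JMJD1C, which belongs to the KDM3 group of histone demethylases. The members are the JMJD1C peaks of Kasumi-1 cells whose summit (the deposited start plus the summit offset) lies in fixed hg19 windows. These are 27.13 to 27.25 Mb for HOXA, 46.60 to 46.81 Mb for HOXB, 54.33 to 54.45 Mb for HOXC and 176.95 to 177.06 Mb for HOXD. By this rule 16 of the 36191 deposited peaks are members, 5 in HOXA, 7 in HOXB, 0 in HOXC and 4 in HOXD. Each cluster was set against the 500 kb on either side of it, which together hold 74 peaks. Kasumi-1 is an established acute myeloid leukaemia line of the myeloblast type that carries the RUNX1-RUNX1T1 fusion, and it was grown without any treatment named in the labels. Chromatin binding was measured by ChIP-seq with a home-made serum whose antigen was the N-terminal end of JMJD1C. The series holds 11 libraries of 4 leukaemia lines, and the other 10, the Kasumi-1 input among them, were not analysed here. A single library was therefore described, with no spread between replicates and no p-value, and every interval covers counting error only.

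HOX genes encode homeodomain transcription factors that set position along the body axis, and they lie in tight arrays in which gene order follows the order of expression. When silent, the arrays are commonly covered by Polycomb proteins and their histone marks. In blood, HOXA and HOXB genes are active in stem and progenitor cells and are turned down as cells mature. HOXA9 and HOXA10 drive self-renewal in many acute myeloid leukaemias, whereas leukaemias with the RUNX1-RUNX1T1 fusion usually express little of them. JMJD1C belongs to a family known for removing methyl groups from lysine 9 of histone H3, and it has been studied as a partner of HOXA9 in leukaemias with MLL fusions. Neither RNA nor histone marks were measured in the library described here.

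The 38 HOX genes listed for these clusters were found by symbol in the RefSeq annotation of GRCh38.p14, 10 each in HOXA and HOXB and 9 each in HOXC and HOXD. Along increasing coordinates HOXA runs from HOXA2 to HOXA13 and HOXB from HOXB1 to HOXB13, while HOXC begins with HOXC13 and HOXD runs from HOXD13 to HOXD1. That annotation is of another build than the peaks, so it was used for names and order, and no peak was placed on a gene or promoter. The DNA under the peaks is not shown because no hg19 genome was used here. RefSeq promoter sequences (250 bases before to 50 after a start site) were found for 20 of the 38 genes, as 26 distinct sequences. Promoters of paralogue group 4 are shown because HOXA4, HOXC4 and HOXD4 represent clusters with peaks and the HOXC cluster without one. HOXB1, an anterior gene active in the hindbrain, is shown for its cluster as the sole HOXB gene matched. Capitals mark CG dinucleotides, and each sequence is given 5′ to 3′ on the gene's strand.
HOXA4: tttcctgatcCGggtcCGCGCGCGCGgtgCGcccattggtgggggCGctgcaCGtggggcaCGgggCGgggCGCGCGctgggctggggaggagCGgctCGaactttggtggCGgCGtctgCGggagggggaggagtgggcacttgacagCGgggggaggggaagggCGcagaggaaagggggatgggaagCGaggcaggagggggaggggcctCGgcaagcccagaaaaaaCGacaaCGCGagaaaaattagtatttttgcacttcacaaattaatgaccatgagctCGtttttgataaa
HOXC4: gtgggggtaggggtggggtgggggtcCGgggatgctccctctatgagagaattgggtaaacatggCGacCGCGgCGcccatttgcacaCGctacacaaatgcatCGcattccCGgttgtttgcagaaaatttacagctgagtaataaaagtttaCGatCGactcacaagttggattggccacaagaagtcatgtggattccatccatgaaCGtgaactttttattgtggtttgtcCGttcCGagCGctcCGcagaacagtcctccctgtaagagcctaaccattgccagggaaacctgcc
HOXD4: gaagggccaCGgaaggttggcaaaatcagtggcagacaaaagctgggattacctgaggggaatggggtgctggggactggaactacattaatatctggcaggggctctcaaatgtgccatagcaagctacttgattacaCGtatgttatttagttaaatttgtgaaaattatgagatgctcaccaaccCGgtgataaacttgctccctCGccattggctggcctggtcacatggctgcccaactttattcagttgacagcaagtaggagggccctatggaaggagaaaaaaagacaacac
HOXB1: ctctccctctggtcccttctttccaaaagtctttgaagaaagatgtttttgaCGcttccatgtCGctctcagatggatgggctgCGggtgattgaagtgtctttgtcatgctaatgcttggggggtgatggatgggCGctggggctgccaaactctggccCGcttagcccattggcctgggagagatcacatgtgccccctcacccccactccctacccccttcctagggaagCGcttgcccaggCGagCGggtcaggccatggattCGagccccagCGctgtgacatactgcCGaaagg
HOXA4 lies on the minus strand at chr7:27130708-27131007 and has 27 CG dinucleotides in this stretch. HOXC4, on the plus strand at chr12:54016638-54016937, has 15, and its promoter entry is shared with HOXC5. HOXD4, on the plus strand at chr2:176151300-176151599, has 4. HOXB1, on the minus strand at chr17:48530962-48531261, has 11. These positions are of GRCh38.p14 and cannot be compared with the peak positions below. Of the 26 HOX promoters, 16 came from 9 HOXA genes, with several entries for HOXA3, 8 from HOXD and 1 each from HOXB and HOXC. The values over the 26 therefore stand mostly for HOXA and HOXD. Their median was 22.5 CG dinucleotides (range 0 to 44), against 14 over all 34796 distinct RefSeq promoters. The median GC content was 58.0% in the HOX promoters and 58.7% in all. The RUNX core motif TGTGGT, read on both strands, occurred in 3 of the 26 HOX promoters and in 13.1% of all promoters. The E-box CANNTG, the motif bound by basic helix-loop-helix factors such as LYL1, occurred in 19 of the 26 and in 68.7% of all. Both motifs can share letters where they lie side by side, and a match is a run of letters in a window, not a site of binding.

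JMJD1C peaks were thus called in HOXA, HOXB and HOXD, and not in HOXC. Density was similar in the clusters that had peaks. HOXA had 4.17 peaks per 100 kb (exact Poisson 95% interval 1.35 to 9.72), HOXB 3.33 (1.34 to 6.87) and HOXD 3.64 (0.99 to 9.31). HOXC had 0 peaks in 120 kb, where the exact Poisson 95% interval of a count of 0 ends at 3.69 peaks, or 3.07 per 100 kb. Flank density ranged widely, from 0.30 peaks per 100 kb beside HOXD to 3.5 beside HOXC, and the average over the spans of the autosomes was 1.26. All 4 clusters together held 16 peaks in 560 kb, or 2.86 per 100 kb, against 74 peaks in 4000 kb of flanks, or 1.85 per 100 kb. That ratio of 1.54 has an exact conditional binomial 95% interval of 0.839 to 2.68, which includes no difference, and it averages over clusters that went opposite ways.

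**Figure D1:**
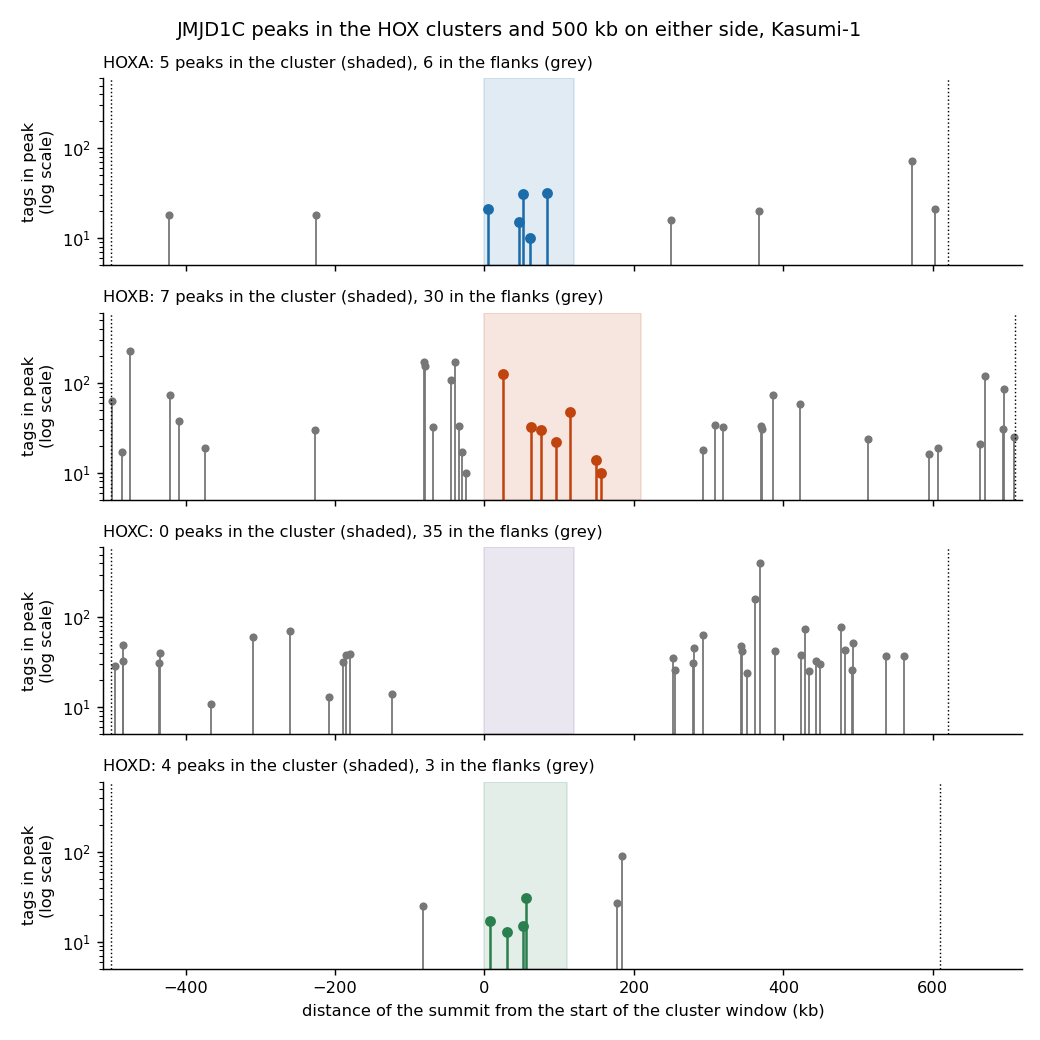
Tags in each JMJD1C peak (vertical axis, log scale) against the distance of its summit from the start of the cluster window in kb, for HOXA, HOXB, HOXC and HOXD from top to bottom. Coloured stems on shading are cluster peaks, grey stems are flank peaks, and dotted lines mark the ends of the 500-kb flanks. HOXA and HOXD peaks stand amid sparse flanks with 6 and 3 peaks, while the HOXC window is empty amid flanks with 35.

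In HOXA, the cluster that holds the leukaemia-linked HOXA9 and HOXA10, 5 weak peaks were called over 78.1 kb. The first lay at chr7:27135007-27135472 and held 21 tags (exact Poisson 95% interval 13 to 32.1) at a fold enrichment of 11.27. Fold enrichment is the authors' own value, the summit over a background taken from the same library. The second, at chr7:27176044-27176352, had 15 tags (8.40 to 24.7) at a fold of 7.70. The third, at chr7:27181350-27181908, had 31 tags (21.1 to 44.0) at a fold of 7.84. This peak began 4997 bp beyond the second, the closest neighbours of the cluster. The fourth, at chr7:27190494-27190684, was the shortest at 191 bp and held 10 tags (4.80 to 18.4) at a fold of 11.36. The fifth, at chr7:27212823-27213493, was the longest at 671 bp and had the most tags, 32 (21.9 to 45.2), at a fold of 8.06. The tag intervals of the third and the fifth peak overlap almost completely, so neither stands above the other. The last 36.7 kb of the window, at the HOXA13 side by gene order, had no peak. Tags and fold did not rank the peaks alike: the peak with the fewest tags had the highest fold.

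HOXA stood in surroundings with few JMJD1C sites. Its 120 kb held 4.17 peaks per 100 kb, against 0.60 in its flanks, which is 6.94 times as many (exact conditional binomial 95% interval 1.68 to 27.3). At the flanks' density, 0.72 peaks would fall in the window. The lower flank held 2 peaks, both with 18 tags, and the nearer of them lay 226 kb from the window. The upper flank held 4 peaks, and the one with the most tags lay at chr7:27701822-27703019 and held 72 tags at a fold of 9.36. No peak was called within 100 kb of either edge, so that 230 kb without a peak precede the first HOXA peak. The excess consists of weak sites. Of the 5 HOXA peaks, 0 reached a score of 100, on a scale of the caller's negative log10 p-value multiplied by 10 that has its cutoff at 50, against 2 of the 6 flank peaks and 52.8% of all peaks. With that threshold HOXA had no peak, and the ratio to its flanks was 0 with an interval that ended at 44.4, so it says little. With a fold of at least 10 the ratio was 4.17 (0.377 to 29.1), an interval that includes no difference. Signal around the peaks was higher too: the median outside the peak was 106 tags per 10 kb at the HOXA peaks and 67.9 at the flank peaks. The same medians were 103 and 125 for HOXB and its flanks, and 83.4 and 83.2 for HOXD and its flanks. Only a peak's own tags were taken out, so tags of other peaks in the 10 kb stay in these values. Another peak lay within 10 kb of 3 of 5 HOXA peaks and 0 of 6 flank peaks. The same was so for 2 of 7 HOXB peaks and 15 of 30 flank peaks, and for 2 of 4 HOXD peaks and 2 of 3 flank peaks. The part of the surrounding signal in the number of called peaks was not tested.

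HOXB held the strongest JMJD1C site of the 4 clusters. It lay at chr17:46624293-46624842, 24.5 kb into the window, and held 125 tags (104 to 149) at a fold of 25.85. This site was rank 2408 of 36191 by tags and rank 1107 by fold, above 93.2% and 96.9% of all peaks. It carried 125 of the 280 tags in HOXB peaks, and its tag interval lies above those of all other members. The fifth HOXB peak, at chr17:46713791-46714315, came next with 47 tags (34.5 to 62.5) at a fold of 13.53. The second, at chr17:46662556-46663136, had 32 tags (21.9 to 45.2) at a fold of 7.05. The third, at chr17:46675226-46675814, had 30 tags (20.2 to 42.8) at a fold of 8.62. The intervals of the second, the third and the fifth peak overlap. The fourth, at chr17:46695949-46696282, had 22 tags (13.8 to 33.3) at a fold of 12.14. The sixth, at chr17:46749031-46749342, had 14 tags (7.65 to 23.5), a fold of 8.97 and the lowest score of all members, 52.88. The seventh, at chr17:46755877-46756050, had 10 tags (4.80 to 18.4) at a fold of 12.35 over 174 bp. The last pair lay 6.53 kb apart, separated by 34.7 kb from the fifth peak, and the last 54.0 kb of the window, the HOXB13 side by gene order, held no peak. HOXB13 is set apart from the other HOXB genes and is best known from the prostate.

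HOXB lay in a region with many JMJD1C sites over the 500 kb on either side, on a chromosome with 2.36 peaks per 100 kb. HOXB had 3.33 peaks per 100 kb, against 3 in its flanks, a ratio of 1.11 (0.412 to 2.58). The flanks had the same number of peaks on each side, 15. Below the window, 8 peaks with 10 to 172 tags lay within 100 kb, the nearest 25.4 kb from the edge. Above it, 2 peaks with 18 and 34 tags lay within 100 kb, the nearest 82.0 kb from the edge. The peak with the most tags in the lower flank lay at chr17:46124836-46126562 and held 229 tags (200 to 261) at a fold of 8.12. In the upper flank it lay at chr17:47269089-47270758 and held 118 tags (97.7 to 141) at a fold of 12.51. The median peak had 57.5 tags per kb of its length in HOXB and 70.4 in the flanks. Summed over peaks the values were 91.4 in HOXB, where the first peak alone had 227, and 89.9 in the flanks. Without its strongest peak, HOXB would fall to 155 tags. Tags in peaks per 100 kb were 0.748 times those of the flanks with it and 0.414 times without it. The flanks kept their own strongest peaks, so this removal could only lower the ratio.

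HOXD, best known for patterning the limbs and the trunk, held 4 peaks, all in the lower part of its window. The first lay at chr2:176957304-176957657 and held 17 tags (9.90 to 27.2) at a fold of 6.49, the lowest fold of all members. The second, at chr2:176979647-176979956, had 13 tags (6.92 to 22.2) at a fold of 7.75. Both are weak by tags and by fold. The third, at chr2:177001980-177002254, had 15 tags (8.40 to 24.7), and the fourth, at chr2:177005123-177005752, had 31 (21.1 to 44.0). The third and the fourth lay 2.87 kb apart, the closest pair of members, and had the same fold of 13.37. From the fourth peak to the end of the window, 54.7 kb, no peak was called, on the side of HOXD1 by gene order.

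Around HOXD, peaks were scarcer still. The cluster had 3.64 peaks per 100 kb, against 0.30 in its flanks, 12.1 times as many (2.05 to 82.7), an interval that is wide because the flanks held 3 peaks. The lower flank had 1 peak, at chr2:176866925-176867384, which held 25 tags at a fold of 11.57. The upper flank held 2, of which the peak at chr2:177133968-177134655 had 89 tags (71.5 to 110) at a fold of 16.03, more than any HOXD peak. The other, at chr2:177127269-177127392, had 27 tags and the highest fold near any cluster, 32.99. The HOXD peaks were thus more frequent than those beside them, and summed over peaks they had 48.4 tags per kb of peak against 111 in the flanks. The contrast in tags rests on the 2 peaks of the upper flank. The lower-flank peak had 54.3 tags per kb, within the HOXD range of 41.9 to 54.5. Of the 4 HOXD peaks, 1 reached a score of 100, as did all 3 flank peaks, and at that threshold the ratio was 3.03 (0.0577 to 37.7). With a fold of at least 10 it was 6.06 (0.506 to 52.9), and both intervals include no difference. Around the peaks, the median signal was 83.4 tags per 10 kb in HOXD and 83.2 in its flanks, where 2 of the 3 peaks had a recovered value. The peak without a recovered value is that with a fold of 32.99, which is 124 bp long.

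HOXC, with its long non-coding RNA gene HOTAIR and genes such as HOXC13, which acts in hair and nail, was without a JMJD1C peak, although its flanks were the richest of the 4. They held 35 peaks, 13 below and 22 above the window, and 4.2 peaks would fall in the window at their density. The ratio to the flanks was 0, and its exact conditional binomial 95% interval ended at 0.926, but at 1.16 with flanks of 250 kb and at 1.11 with flanks of 1000 kb, which includes no difference. The empty stretch was longer than the window: it spanned chr12:54206027-54582321, 376 kb in all. It began beyond a peak with 14 tags and a fold of 12.78, 124 kb below the window, and ended at a peak with 35 tags and a fold of 8.36, 133 kb above it. The strongest peak above lay at chr12:54697832-54698738 and held 400 tags (362 to 441) at a fold of 21.99. The strongest below lay at chr12:54069549-54070340 and held 70 tags (54.6 to 88.4) at a fold of 16.89. At the flank peaks of HOXC the median signal around the peak was 145 tags per 10 kb, above the 99.7 of the whole list. Inside the empty stretch this signal cannot be recovered, since the file holds values at peaks only, and a low local depth there and an absence of binding cannot be told apart.

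**Figure D2:**
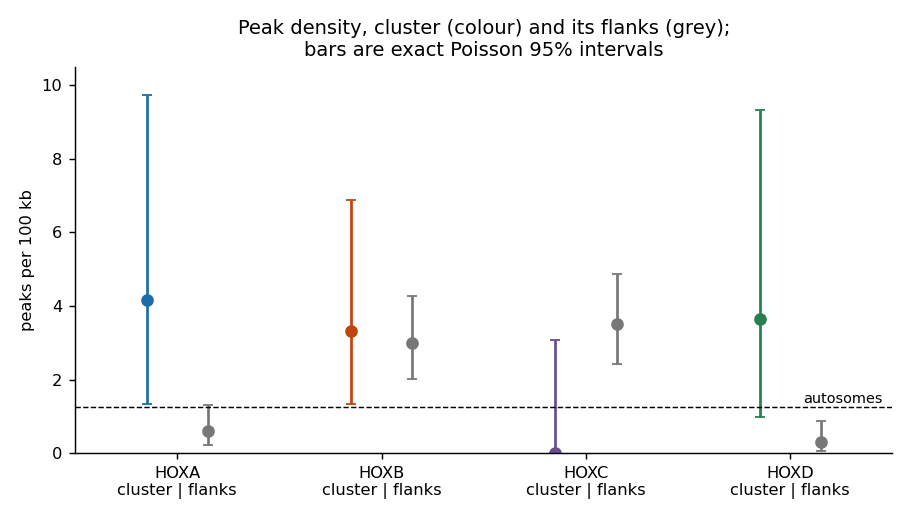
Peaks per 100 kb (vertical axis) in each HOX cluster (colour, left) and in its flanks (grey, right), with exact Poisson 95% intervals as bars; the dashed line is the 1.26 of the autosomes. HOXA and HOXD lie above their flanks, HOXB beside them and HOXC, at 0, below them.

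Between clusters, 6 pairs were compared, and none differed beyond counting error. HOXA over HOXB gave a ratio of peaks per 100 kb of 1.25 (0.313 to 4.58), HOXA over HOXD 1.15 (0.247 to 5.77) and HOXD over HOXB 1.09 (0.234 to 4.29). These intervals leave room for differences of several fold in either direction. HOXC over HOXA was 0 with an upper end of 1.09, over HOXB 0 with an upper end of 1.21, and over HOXD 0 with an upper end of 1.39. Tags in peaks differed more: HOXB had 133 per 100 kb, HOXA 90.8 and HOXD 69.1. Without its first peak HOXB had 155 tags over 210 kb. HOXA had 109 tags over 120 kb with all its peaks and 77 without its own strongest. The covered length was 1.83% of the HOXA window, 1.46% of HOXB and 1.43% of HOXD, against 0.314%, 1.98% and 0.127% of their flanks.

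The fixed edges of the windows did not decide any membership narrowly. Nearest to an edge from inside were the first HOXA peak, 5.21 kb from the lower edge with 21 tags, and the first HOXD peak, 7.49 kb from it with 17 tags. Nearest from outside was a peak with 10 tags and a fold of 8.20, 25.4 kb below HOXB. No peak crossed an edge, and counting peaks by any overlap or by full inclusion gave the same members.

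Fixed windows over the autosomes give a scale for these numbers. Windows as long as each cluster were laid end to end between the first and last peak of each autosome, leaving out stretches of at least 3 Mb without a peak. At least 5 peaks, the number in HOXA, were found in 10.8% of 21803 windows of 120 kb. At least 7 peaks, the number in HOXB, were found in 13.9% of 12423 windows of 210 kb. At least 4 peaks, the number in HOXD, were found in 14.4% of 23780 windows of 110 kb. By peak number these clusters were thus among the richer windows and far from the richest. Without a peak were 45.8% of the windows of 120 kb, so an empty window of the length of HOXC was common in the library. Of the 35163 gaps between neighbouring autosomal peaks, 1374 (3.91%) were at least as long as that over HOXC, and they made up 45.2% of the autosomal span. Unlike the windows, these gaps and this span include the stretches of at least 3 Mb without a peak.

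**Figure D3:**
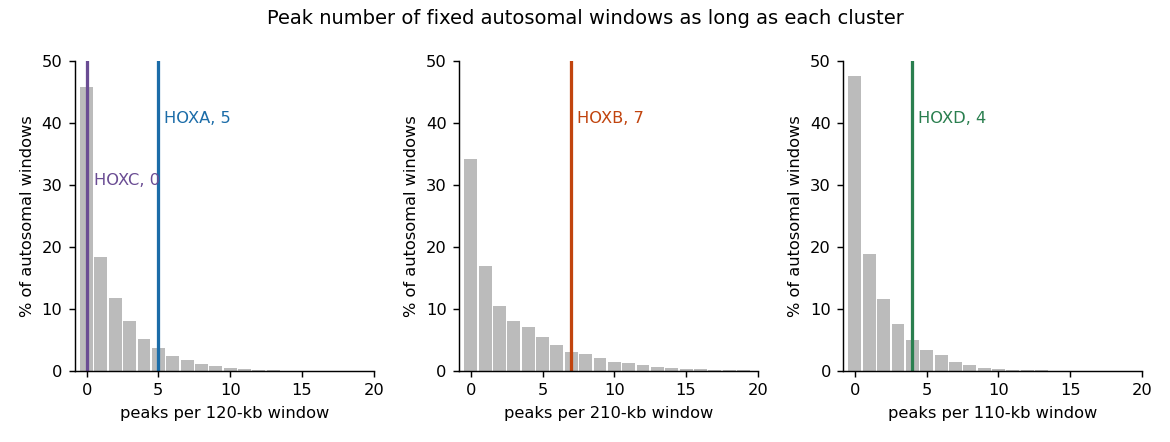
Share of autosomal windows (vertical axis, %) by the number of JMJD1C peaks in them (horizontal axis), for windows of 120 kb, 210 kb and 110 kb from left to right, with coloured lines at the clusters' own numbers. HOXA, HOXB and HOXD, with 5, 7 and 4 peaks, lie in the right tail, and HOXC, with 0, in the tallest bar.

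The HOX peaks had a lower median of tags than the whole list and a similar median fold. They held a median of 21.5 tags (quartiles 14.8 and 31.2), against 33 in the flanks and 30 over all peaks. Their median length was 410 bp, against 534 bp in the flanks and 477 bp over all peaks. The first HOXB peak alone had more tags than the upper quartile of all peaks, 56. Fewer than 30 tags were found in 9 of the 16, against 49.1% of all peaks, so that share was near the background. Of the 16 peaks, 8 had a fold of at least 10 (50%, exact binomial 95% interval 24.7% to 75.3%), against 56.8% in the flanks and 60.1% of all peaks. By cluster this was 2 of 5 peaks in HOXA, 4 of 7 in HOXB and 2 of 4 in HOXD. The median fold was 10.12 in the clusters, 10.92 in the flanks and 10.87 over all peaks, so the fold of the members was close to the background. A score of at least 100 was reached by 4 of the 16 members (25%), against 56.8% in the flanks and 52.8% of all peaks. These 4 are the first, the fourth and the fifth HOXB peak and the fourth HOXD peak, with scores of 773.22, 114.98, 245.19 and 122.64. The score grows with tags as well as with fold, so it is no separate observation from the low tags.

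**Figure D4:**
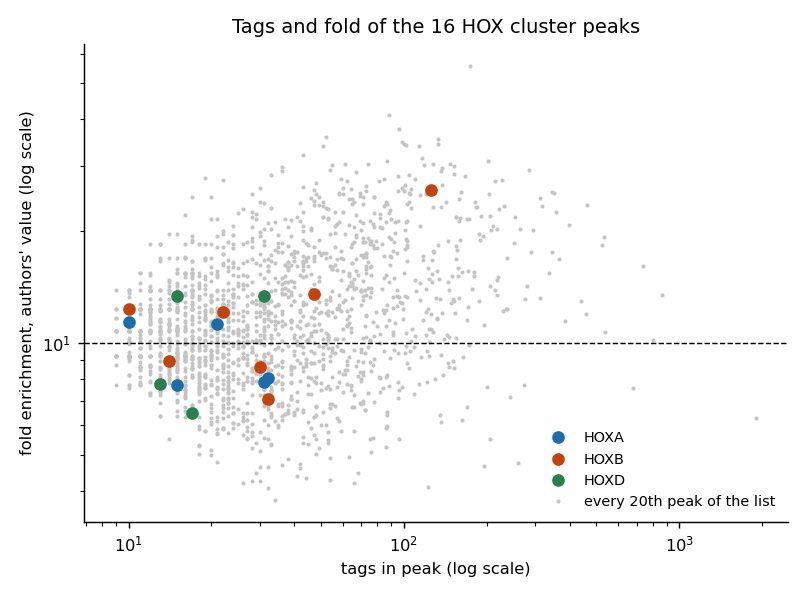
Fold enrichment as deposited by the authors (vertical axis, log scale) against tags per peak (horizontal axis, log scale) for the peaks of HOXA, HOXB and HOXD, with every 20th peak of the list in grey and a dashed line at a fold of 10. One HOXB peak, which has 125 tags at a fold of 25.85, stands apart from the other 15, which have 10 to 47 tags.

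The height of each summit could be recovered, because fold, tags and score together fix it. The background came out as a whole number of tags per 10 kb (within 0.05) for all 16 members. Multiplied by the fold and the fragment size of 88 bp, it gave a summit height within 0.05 of a whole number of overlapping fragments in each. Summits in HOXA were 12, 8, 10, 8 and 10 fragments high from the first to the fifth peak. In HOXB they were 53, 9, 11, 11, 15, 9 and 10 fragments high, and in HOXD 8, 6, 12 and 12. Apart from the first HOXB peak the members thus had summits of 6 to 15 fragments. Their median of 10 fragments (quartiles 8.75 and 12) compares with 13 in the flanks and 12 (quartiles 9 and 20) over all peaks. The highest summits were those of the first and the fifth HOXB peak. The lowest summit, 6 fragments, was the second HOXD peak. The members with 12 or more fragments had folds of 11.27 to 25.85. Below that height fold varied, as in the seventh HOXB peak with a fold of 12.35 at 10 fragments and the third with 8.62 at 11. Height, fold and background are tied by the arithmetic above, so height is no separate observation from fold.

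**Figure D5:**
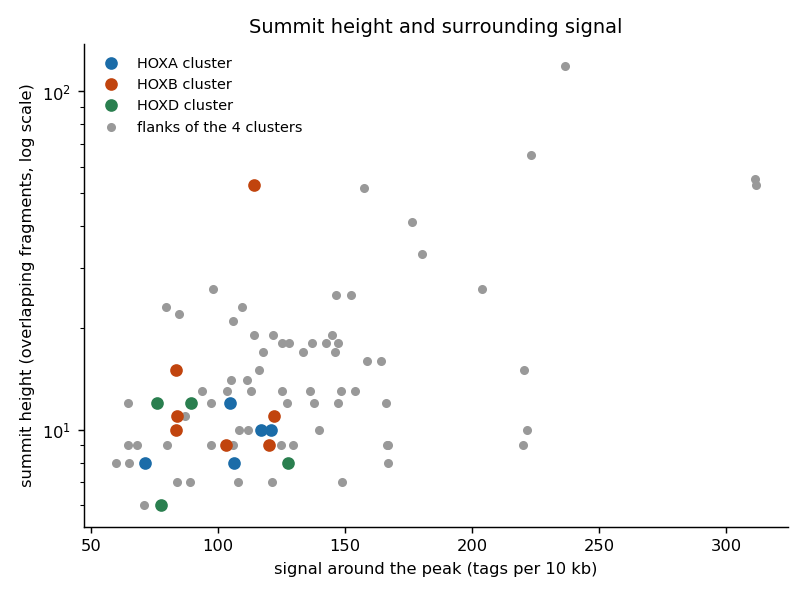
Summit height in overlapping fragments (vertical axis, log scale) against the signal around the peak in tags per 10 kb (horizontal axis), for peaks of HOXA, HOXB and HOXD (colour) and of the flanks of all 4 clusters (grey). Cluster peaks lie between 71.4 and 128 tags per 10 kb, and all but one have summits of 6 to 15 fragments.

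Signal around the peaks was close to that of the whole list. Outside the peak, the 16 members had a median of 104 tags per 10 kb (range 71.4 to 128), against 127 in the flanks and 99.7 over all peaks. By cluster the medians were 106 in HOXA, 103 in HOXB and 83.4 in HOXD, with the ranges of the clusters overlapping. The background equalled the library's genome-wide average, 73.7 tags per 10 kb, in no member and in 7.72% of all peaks. Spacing was close to that of the list too: 7 of the 16 members (43.8%) had another peak within 10 kb, against 56.8% in the flanks and 49.7% of all peaks. Of these, 3 were in HOXA, 2 in HOXB and 2 in HOXD.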

How the data were processed

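JMJD1C ChIP-seq in Kasumi-1 cells was analysed from 1 deposited peak list. Peaks were called with MACS 1.4.2 without a control, per the file headers, with 10 kb around a peak as its background, a p-value limit of 1e-05, 2.7 Gb of effective genome and at most 1 tag of 51 bp per position. The library had 29330355 tags, of which 19897991 were kept. HOMER, Bowtie2 2.1.0 and the build hg19 are named, per the submitters' processing notes. The deposited columns are whole tag counts, a score (10 times the negative log10 of the p-value) and a fold ratio of summit to local background. Without an input, binding cannot be told apart from tags gathered by repeats, extra DNA copies or open chromatin, and weak peaks rest on as few as 9 tags.

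Peaks were assigned to windows by summit. Counts have exact Poisson, shares exact Clopper-Pearson and ratios of rates exact conditional binomial 95% intervals. Those of peak numbers treat peaks as independent. The background was solved from the Poisson tail over the peak length (at least 176 bp), and it was a whole number within 0.05, or within 0.15 of the minimum, in 95.6% of all peaks. In 99.5% of these the summit height was whole. The signal around a peak is that background less the peak's own tags, scaled to 10 kb, and tags of neighbouring peaks stay in it. It was computed for peaks under 5000 bp. The computation was tested on simulated peaks with whole backgrounds and heights, made with the same formulas, which checks the arithmetic alone. The ratio interval was tested on independent Poisson counts. Every peak of a cluster with 10 or fewer was named, and in each flank the one with the most tags; further flank peaks were named after their values were seen. Members and lists were chosen with earlier results of these data known. Matplotlib 3.10.9, pandas 2.3.3, SciPy 1.17.1 and NumPy 2.4.6 were run under Python 3.11.15.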

Additional observations from a re-analysis of the deposited data

How the results depend on the processing

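HOXC had no peak also when any overlap with the window counted; the other alternatives could not have added one. The sizes of the contrasts in HOXA and HOXD rest on weak peaks. With a score of at least 100, the clusters kept 4 peaks with 225 tags, a median fold of 13.45 and a tag ratio to the flanks of 0.514 (0.843 with all peaks). The HOXA ratio was then 0 (upper end 44.4, so it says little) and that of HOXD 3.03. With a fold of at least 10, 8 peaks with 281 tags were left, and the ratios were 4.17 (0.377 to 29.1) in HOXA and 6.06 (0.506 to 52.9) in HOXD; these smaller numbers follow from the thresholds. Without the peak with the most tags in each cluster, 277 tags and a tag ratio of 0.502 were left. The flanks kept all their peaks, so this removal could only lower the ratio. The HOXC ratio was 0 throughout, but its upper end passed 1 with a score of at least 100 (1.69), a fold of at least 10 (1.90), flanks of 250 kb (1.16) or 1000 kb (1.11), the lower-coordinate flank alone (1.37), peaks up to 1 kb apart joined (1.05) and the rest of the chromosome in place of the flanks (2.1). The last of these was chosen after seeing the data. With other flanks, HOXA and HOXD stayed above them with intervals over 1, but the sizes moved. These intervals treat peaks as independent. Peaks lay in groups, as 49.7% of all peaks had another within 10 kb at an autosomal average of 1.26 per 100 kb. The intervals are therefore likely too narrow, and those that end just over 1 decide little. In HOXA the ratio was 3.76 (1.22 to 8.78) against the rest of the chromosome and 10.4 (1.71 to 109) against the lower flank alone. In HOXB it was 1.41 (0.567 to 2.91) against the rest of the chromosome, which includes no difference. In HOXD it was 6.06 (1.03 to 41.4) with flanks of 250 kb, 3.69 (1.00425 to 9.46) against the rest of the chromosome and 18.2 (1.8 to 895) against the lower flank alone. The members with the fewest tags held 10, with an exact Poisson interval of 4.80 to 18.4. No paired analysis was possible because a single library has no pairs.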
